A study of Rattus norvegicus with 16 samples.

Results

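Of the transcripts measured in rat hippocampus 24 h after fluid percussion injury, 10 genes of the hypoxia response and of glycolysis are described here: Hif1a, Vegfa, Adm, Hk1, Hk2, Pfkfb3, Ldha, Pgk1, Pkm2 and Bnip3. A probe belonged to a gene when the array gave it exactly that gene name, and control spots were left out. This gave 16 probes among the 30367 on the array, with 4 for Vegfa, 3 for Pkm2, 2 for Pfkfb3 and 1 for each of the other genes, and all 16 passed the filter on dim probes. Where a gene had several probes it was counted by the one that was brightest on average, and values of other probes are given beside it, with 1 Vegfa probe not reported singly.

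The arrays came from adult male Sprague-Dawley rats, with 1 rat per array. Naive rats (n = 3) were neither anesthetised nor handled, Sham rats (n = 2) were anesthetised and prepared but not injured, and TBI rats (n = 3) received a severe parasagittal fluid percussion injury. The other 8 rats were injured in the same way and treated, 3 with PMI-006 at 250 mg/kg and 3 with JM6 at 400 mg/kg by oral gavage (TBI+PMI and TBI+JM6), and 2 with estradiol at 33 ug/kg (TBI+E33), for which the labels give a subcutaneous and the methods an intraperitoneal route. JM6 and PMI-006 are experimental compounds that the study calls neuroprotective, and no uninjured rat received a drug. The study used 3 rats in every group, and 1 rat each of Sham and TBI+E33 was not analysed here.

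Hypoxia-inducible factor 1 is a transcription factor made of an oxygen-labile alpha subunit, encoded by Hif1a, and a stable beta subunit. In normal oxygen the alpha subunit is hydroxylated and degraded, so that the factor is controlled mainly at the level of the protein and its mRNA can stay level while its activity changes. When oxygen is short it binds elements with the core ACGTG or GCGTG and raises the transcription of angiogenic signals, of glucose transporters, of nearly every step of glycolysis and of mitophagy genes. Hexokinases (Hk1, Hk2) trap glucose in the cell, Pfkfb3 makes the allosteric activator of phosphofructokinase, Pgk1 and the pyruvate kinase Pkm2 form ATP, and Ldha turns pyruvate to lactate. In brain, Hk1 is the main neuronal hexokinase, and glucose use is disturbed in the days after a concussive injury.

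The sequences of 3 probes are shown because the results below turn on them. The Hk1 probe gave the one difference that held under every setting that could be fitted, that of treated from TBI rats. No setting could part this difference from the scanning session. The first Pfkfb3 probe gave the one difference among the genes after injury, and the Vegfa probe A_64_P155983 was called in 2 drug groups where the brightest Vegfa probe was not. Capitals in the Hk1 probe mark GAATTC, the recognition sequence of the restriction enzyme EcoRI, which 579 of the 30367 probes (1.91%) hold.
Hk1: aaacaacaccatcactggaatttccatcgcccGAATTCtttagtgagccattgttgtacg
Pfkfb3 A_64_P014542: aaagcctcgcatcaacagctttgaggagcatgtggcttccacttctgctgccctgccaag
Vegfa A_64_P155983: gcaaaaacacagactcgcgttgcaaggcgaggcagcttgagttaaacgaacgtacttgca

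On the rat build rn4, the probe positions in the scanner files placed this Pfkfb3 probe at chr17:78262283-78262342 and the second one at chr17:78261280-78261339. Of the 4 Vegfa probes, all along one strand of chromosome 9, the brightest was at chr9:10535933-10535992, A_64_P155983 at chr9:10531972-10532031 and A_64_P099891 at chr9:10528551-10528610, so that the brightest was the nearest to the 3′ end of the gene. The Hk1 probe was among 1406 probes (4.63%) that the files list as unmapped. The other probes were at chr6:96462636-96462695 for Hif1a, chr1:168382310-168382369 for Adm, chr4:116925790-116925849 for Hk2, chr1:97412370-97412429 for Ldha, chrX:94340131-94340190 for Pgk1 and chr1:198683030-198683089 for Bnip3. No exon annotation of that build was used.

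The 250 bases before the transcription start, from RefSeq on the build GRCr8, were found for 9 of the 10 genes (Pkm2 under its current symbol Pkm, and not Pgk1), in 11 windows because Vegfa and Hk1 had 2 starts each. They were searched on both strands for ACGTG and GCGTG, the core of the element that the factor binds, where CACGTG holds a match on each strand. At least 1 match was present in 5 windows, those of Hif1a, Pfkfb3, Ldha and Bnip3 and one of the Hk1 windows, and among 33469 rat promoters of the same length 36.7% held at least 1. The 3 windows below are shown because Pfkfb3 was the gene called after injury and because those of Ldha and Bnip3 held 3 separate stretches each, as did 4.17% of all promoters. Capitals mark the matches, the Pfkfb3 window is chr17:71944683-71944932 (plus strand), the Ldha window chr1:106507842-106508091 (plus strand) and the Bnip3 window chr1:203154963-203155212 (minus strand).
Pfkfb3 promoter: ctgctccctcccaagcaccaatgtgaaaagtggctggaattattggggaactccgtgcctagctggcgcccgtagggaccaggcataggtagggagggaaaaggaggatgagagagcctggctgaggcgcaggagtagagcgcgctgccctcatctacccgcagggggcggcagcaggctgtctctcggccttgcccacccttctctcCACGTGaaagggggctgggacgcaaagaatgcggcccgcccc
Ldha promoter: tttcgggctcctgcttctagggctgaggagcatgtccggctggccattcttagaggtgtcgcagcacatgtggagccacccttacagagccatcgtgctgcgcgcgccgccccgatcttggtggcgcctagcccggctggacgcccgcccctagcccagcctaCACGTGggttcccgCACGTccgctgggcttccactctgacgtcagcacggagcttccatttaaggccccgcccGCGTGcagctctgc
Bnip3 promoter: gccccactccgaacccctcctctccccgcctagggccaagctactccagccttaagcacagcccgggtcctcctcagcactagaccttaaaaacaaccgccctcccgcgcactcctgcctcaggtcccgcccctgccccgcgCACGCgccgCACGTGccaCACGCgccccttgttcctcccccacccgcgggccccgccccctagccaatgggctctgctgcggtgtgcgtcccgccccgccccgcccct

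Levels are given as log2 of the background-subtracted intensity divided by the 75th percentile of the probes well above background on the same array, so that a level of 0 is that percentile and a difference of 1 is a doubling. Naive, Sham and TBI arrays were scanned in one session and the drug arrays in another, so that drug treatment and session cannot be told apart. Between 16282 and 18245 probes were well above background in the first session and between 20259 and 24984 in the second, and each comparison with a drug group is therefore also given after quantile normalization. The numbers in the array names formed a low series (Naive, TBI and 2 TBI+PMI rats) and a high series (Sham and the other 6 treated rats). TBI vs. Sham and Sham vs. Naive, and TBI+JM6 and TBI+E33 vs. TBI, therefore cannot be told apart from this numbering. TBI vs. Naive lay within the low series, and none of the 10 genes parted the 2 series over all 16 arrays. Within the first session Pfkfb3 did part them, with Sham arrays at -5.84 and -5.52 and all Naive and TBI arrays at -7.18 or lower. Of the hippocampal markers, Snap25, Slc17a7, Camk2a and Gfap were well above background on all 16 arrays, and Prox1 on 8. The arrays Naive 2, Sham 1 and TBI+PMI 1 stood apart by choroid plexus genes, with a summed level of 76.6, 121.3 and 150.5 against 0.2 to 7.6 on the others.

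In TBI vs. Sham, 1 of the 10 genes was called at an adjusted p under 0.05, Pfkfb3, which was lower after injury. This share of 10% was near the 9.41% of all probes tested that were called. In TBI vs. Naive, 0 of 10 were called by limma, against 4.71% of all probes, with 1 gene at an unadjusted p under 0.05. After quantile normalization 0 of 10 were called in both comparisons, where 7.97% and 5.55% of all probes were. The median log2 fold change of the 10 genes was 0.17 in TBI vs. Sham and 0.04 in TBI vs. Naive, beside -0.03 and 0.04 over all probes tested.

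**Figure D1:**
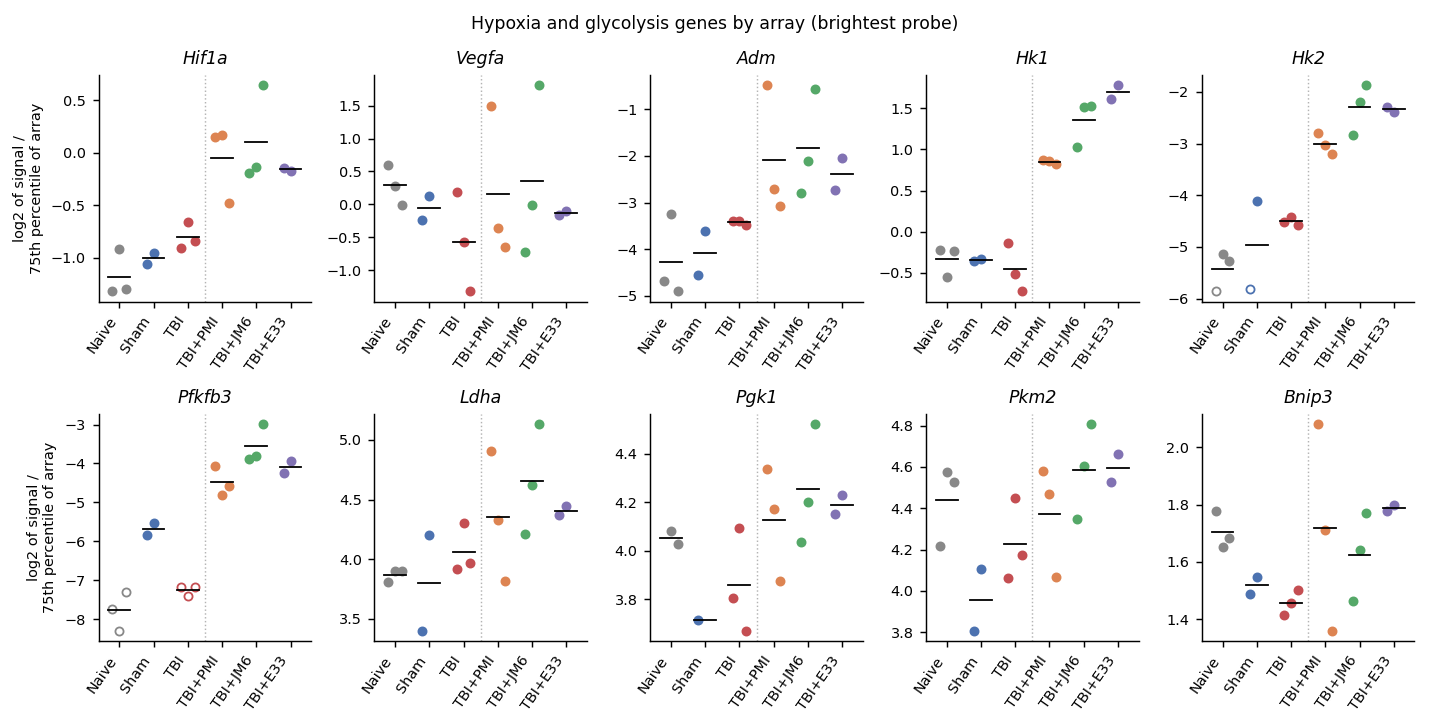
Level of each of the 10 genes (brightest probe, log2 scale, scaled by the 75th percentile) on each of the 16 arrays, by group, with a black line at the group mean and hollow points where the spot was not well above background. The dotted line parts the 2 scanning sessions. Pfkfb3 was not well above background on any Naive or TBI array and was so on both Sham and all 8 drug arrays, and TBI+PMI 1 and TBI+JM6 3 were the highest drug arrays for Vegfa, Adm, Ldha and Pgk1.

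Hif1a, the oxygen-regulated subunit, was measured on all 16 arrays. Its level was -1.32, -0.92 and -1.30 in Naive rats, -1.05 and -0.95 in Sham rats and -0.90, -0.65 and -0.84 in TBI rats. The 3 TBI rats lay above all Sham and Naive rats, by a small margin. The difference was 0.20 (SE 0.27, 95% interval -0.38 to 0.78, adjusted p = 0.669) in TBI vs. Sham and 0.38 (SE 0.24, adjusted p = 0.405) in TBI vs. Naive, so that neither passed the test.

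Vegfa encodes the growth factor that drives angiogenesis and opens the blood-brain barrier. With its brightest probe the level was 0.60, 0.28 and -0.00 in Naive rats, -0.24 and 0.13 in Sham rats and 0.19, -0.57 and -1.32 in TBI rats. TBI 3 was the lowest and TBI 1 the highest of the injured rats, and the 3 groups overlapped. The difference in TBI vs. Sham was -0.51 (SE 0.71, 95% interval -2.06 to 1.04, adjusted p = 0.69), an interval that holds a large fall as well as a doubling. None of the other 3 Vegfa probes was called in a comparison among Naive, Sham and TBI rats.

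Adm encodes adrenomedullin, a vasodilator peptide induced by hypoxia. Its level was -4.69, -3.25 and -4.90 in Naive rats, -4.56 and -3.60 in Sham rats and -3.40, -3.39 and -3.47 in TBI rats. The TBI rats were within 0.08 of one another and above both Sham rats, and Naive 2, one of the rats with choroid plexus genes, was the highest of the untreated rats. The difference was 0.66 (SE 0.77, 95% interval -1.01 to 2.33, adjusted p = 0.626) in TBI vs. Sham and 0.86 (SE 0.69, adjusted p = 0.53) in TBI vs. Naive.

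Hexokinase 1 was level across the uninjured and injured rats. Hk1 was at -0.22, -0.55 and -0.24 in Naive rats, -0.36 and -0.33 in Sham rats and -0.14, -0.51 and -0.72 in TBI rats. The groups overlapped, and the difference of -0.11 in TBI vs. Sham had a 95% interval of -0.57 to 0.34 (adjusted p = 0.766). Hk2, the inducible hexokinase, was at -5.86, -5.14 and -5.27 in Naive rats, -5.82 and -4.10 in Sham rats and -4.52, -4.42 and -4.58 in TBI rats. It was well above background on 2 of 3 Naive, 1 of 2 Sham and 3 of 3 TBI arrays. All TBI rats lay above all Naive rats but between the 2 Sham rats, and the difference of 0.92 in TBI vs. Naive (SE 0.37, adjusted p = 0.174) did not pass the test.

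Pfkfb3 was the one gene called, and the call rested on Sham rats. Its brightest probe was well above background on both Sham arrays, at -5.84 and -5.52, and on no Naive or TBI array. The measured values were -7.74, -8.30 and -7.30 in Naive rats and -7.18, -7.41 and -7.18 in TBI rats, which give an upper bound only. The fitted difference was -1.57 (SE 0.33, adjusted p = 0.0155) in TBI vs. Sham and 2.10 (SE 0.33, adjusted p = 0.00453) in Sham vs. Naive. The Sham mean was 1.22-fold above the dimmest signal that counts as well above background on TBI arrays. For Naive arrays it was 1.29-fold above that signal. The flag has no fixed cut-off, since on Sham 1 Hk2 lacked it at -5.82 and Pfkfb3 had it at -5.84. These small folds are therefore approximate and not strict minima. Between TBI and Naive rats, neither of them well above background, no difference is given.

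Sham vs. Naive compares anesthesia and preparation with no handling, and also the high with the low number series, which cannot be told apart. It gave 1 of 10 genes, Pfkfb3, against 8.08% of all probes, and after quantile normalization the same gene again, against 5.76%. Both Sham rats shared a slide with Naive 1 and 2, and with the slide as a fixed block the adjusted p was 0.0779. For TBI vs. Sham, the adjusted p was 0.0839 after quantile normalization and 0.247 with the slide block, and with a model-based background correction (normexp) the sign turned (0.30, adjusted p = 0.839). The second Pfkfb3 probe was not well above background on any Naive, Sham or TBI array and has no bearing on this difference, which rests on 1 probe and 2 Sham rats. Without Sham 1, Sham 2, TBI 2 or TBI 3 the call was lost (adjusted p = 0.0622, 0.100, 0.0530 and 0.0529), and without TBI 1 it held (adjusted p = 0.0123).

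None of the later glycolytic genes was called. Ldha, which makes lactate from pyruvate, was at 3.80, 3.90 and 3.90 in Naive rats, 3.40 and 4.20 in Sham rats and 3.92, 4.31 and 3.96 in TBI rats. The TBI values lay within the range of the 2 Sham rats apart from TBI 2, and the difference was 0.26 (adjusted p = 0.658). Pgk1, phosphoglycerate kinase, was at 3.80, 4.10 and 3.67 in TBI rats and differed from Sham by 0.14 (adjusted p = 0.77), but 1 Sham and 1 Naive spot were outliers and were left out, so that the Sham level of 3.71 is that of 1 rat.

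Pkm2, the pyruvate kinase gene, was at 4.22, 4.58 and 4.53 in Naive rats, 3.81 and 4.11 in Sham rats and 4.06, 4.45 and 4.18 in TBI rats. Both Sham rats lay below all Naive rats, without a call (difference -0.48, adjusted p = 0.198), and TBI vs. Sham was 0.27 (adjusted p = 0.452). Bnip3, a mitochondrial outer membrane protein that starts mitophagy, was at 1.78, 1.65 and 1.68 in Naive rats, 1.49 and 1.55 in Sham rats and 1.41, 1.46 and 1.50 in TBI rats. All TBI rats lay below all Naive rats, and the difference of -0.25 (adjusted p = 0.454) did not pass the test, nor did that of -0.06 against Sham (adjusted p = 0.872).

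**Figure D2:**
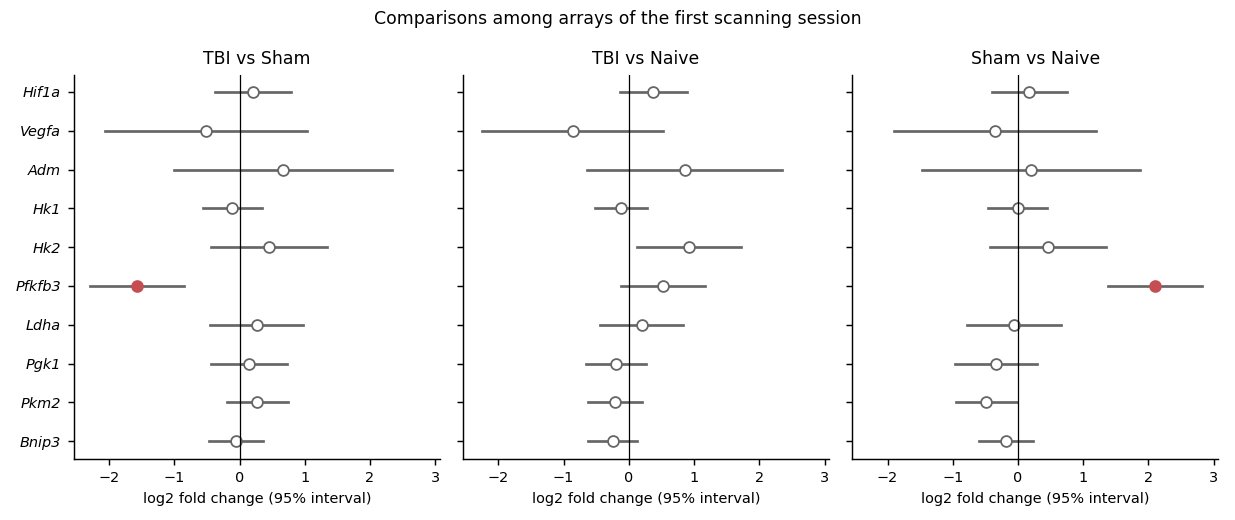
Log2 fold change of the 10 genes in TBI vs. Sham, TBI vs. Naive and Sham vs. Naive, with the 95% interval from limma and a filled red point for an adjusted p under 0.05. Pfkfb3 in TBI vs. Sham (-1.57) and in Sham vs. Naive (2.10) are the called points, and the intervals of Vegfa and Adm are the widest.

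Around these genes, 7 lists of the pathway held 80 genes tested. In TBI vs. Sham 5 of them were called higher and 5 lower (4 and 4 after quantile normalization), near the share of all probes (9.41% and 7.97%), and their median log2 fold change was -0.06. In TBI vs. Naive 1 was higher and 1 lower. Of 18 other glycolysis enzymes Hk3, the hexokinase of blood and myeloid cells, was higher in TBI than in Sham rats and Ldhb, the lactate dehydrogenase subunit of oxidative cells, was lower. Pklr is counted among the higher genes, but it was not well above background on any TBI or Sham array and no difference is given for it. None of 9 glucose and monocarboxylate transporters and none of 9 pyruvate dehydrogenase genes was called by limma at an adjusted p under 0.05 in TBI vs. Sham, TBI vs. Naive or Sham vs. Naive, where 3, 2 and 1 transporters and 2, 0 and 1 pyruvate dehydrogenase genes had an unadjusted p under 0.05.

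Hk3 was at -6.50 and -6.84 in Sham rats, where it was not well above background, at -5.97, -5.75 and -3.27 in Naive rats and at -5.40, -2.37 and -2.85 in TBI rats. TBI 1 was the lowest of the injured rats, Naive 3 lay between it and the other two, and the level was at least 6.85-fold higher in TBI rats (fitted difference 3.13, adjusted p = 0.0443, and 0.067 after quantile normalization). Summed leukocyte markers were at 0.3 to 0.4 in Sham rats and 0.6 to 3.2 in TBI rats, with TBI 1 again the lowest. In Naive rats they were below Sham, at 0.12 to 0.14, whereas Hk3 was above Sham there. Among 5 markers tested S100a8 and S100a9 were called higher in TBI vs. Sham, while the mean of Cd3e was lower in TBI (-3.42) than in Sham rats (-2.55). The part of these markers in the result was not tested. In bulk tissue more cells of a type and more RNA per cell cannot be told apart. Ldhb was at 4.32 and 4.55 in Sham rats, 4.26, 4.20 and 3.93 in Naive rats and 3.68, 3.66 and 3.66 in TBI rats. All TBI rats were below all Sham and Naive rats, and the difference was -0.77 against Sham (adjusted p = 0.0341). Neuronal markers moved the same way, with Snap25 and Slc17a7 called lower in TBI vs. Sham among 7 tested and a summed level of 23.8 to 26.2 in Sham, 13.7 to 19.1 in TBI and 17.3 to 18.9 in Naive rats, and their part in the result was not tested.

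Of the 8 other subunits and oxygen-sensing enzymes, 1 was called in TBI vs. Sham. Epas1, which encodes the related alpha subunit HIF-2 alpha of endothelium and astrocytes, was at -4.39, -4.34 and -4.55 in Naive rats, -2.75 and -2.90 in Sham rats and -3.29, -4.63 and -4.87 in TBI rats. Both Sham rats were above all Naive and TBI rats, as for Pfkfb3. It fell by 1.44 in TBI vs. Sham (adjusted p = 0.0279) and was 1.60 higher in Sham vs. Naive (adjusted p = 0.0182). Summed endothelial markers were at 2.35 to 2.70 in Sham, 1.28 to 1.89 in TBI and 1.06 to 2.22 in Naive rats, with Cldn5 called lower in TBI vs. Sham (-1.23, adjusted p = 0.0351) among 6 tested, and their part in the result was not tested. Of the fructose-2,6-bisphosphate enzymes, relatives of Pfkfb3, Pfkfb4 was called lower in TBI vs. Sham (adjusted p = 0.0389) with both Sham and 1 of 3 TBI arrays well above background, and at least 2.20-fold higher in Sham than in Naive rats (adjusted p = 0.0489), of which none was. Neither call held after quantile normalization (adjusted p = 0.0548 and 0.144). Pfkfb1 was called higher in TBI than in Sham rats (adjusted p = 0.0257), but only 1 of 3 TBI and no Sham array was well above background and no fold is given.

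Of 24 other targets of the factor, 1 was higher and 2 were lower in TBI vs. Sham. Hmox1, heme oxygenase 1, which degrades heme and is also induced by heme itself and by oxidative stress, was at -4.05, -3.38 and -3.88 in Naive rats, -3.71 and -3.23 in Sham rats and -1.28, 0.13 and -0.92 in TBI rats. The injured rats stood clear of all others, and Hmox1 was the one target called against both controls (2.78 vs. Sham, adjusted p = 0.049, and 3.08 vs. Naive, adjusted p = 0.0323). Ddit4, an inhibitor of mTOR signalling that also responds to glucocorticoids, was at -1.38, -1.12 and -1.28 in Naive rats, -0.22 and -0.34 in Sham rats and -1.20, -2.45 and -1.93 in TBI rats. Both Sham rats were again the highest, and the difference was -1.58 in TBI vs. Sham (adjusted p = 0.0279). Ndrg1, a stress-induced gene of myelinating cells, had a difference of -1.30 (adjusted p = 0.0289), but 1 Sham spot was left out as an outlier, so that the Sham level is that of 1 rat, assumed to vary like the other groups.

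Among 12 ligands and receptors of the VEGF and adrenomedullin families, Ramp1, a co-receptor of calcitonin-family peptides, fell by 1.36 in TBI vs. Naive (adjusted p = 0.0235), and Vegfb gave the largest difference. Vegfb was at -1.23, -0.99 and -1.52 in Naive rats, -7.97 and -8.18 in Sham rats and -1.45, -2.02 and -2.39 in TBI rats. In treated rats it was at -1.30 and -1.35 in TBI+PMI 1 and 2, -7.54 in TBI+PMI 3, -6.69, -7.35 and -5.17 in TBI+JM6 rats and -6.45 and -6.44 in TBI+E33 rats. The 8 high arrays were those of the low number series and the 8 low arrays those of the high series, including within TBI+PMI, with a gap of 2.78 between the series. Vegfb was 1 of 4 probes of 21901 with a gap of at least 2, so its difference of 6.12 in TBI vs. Sham (at least 20.6-fold, adjusted p = 0.0203) and its fall in TBI+JM6 and TBI+E33 vs. TBI cannot be told apart from that numbering.

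**Figure D3:**
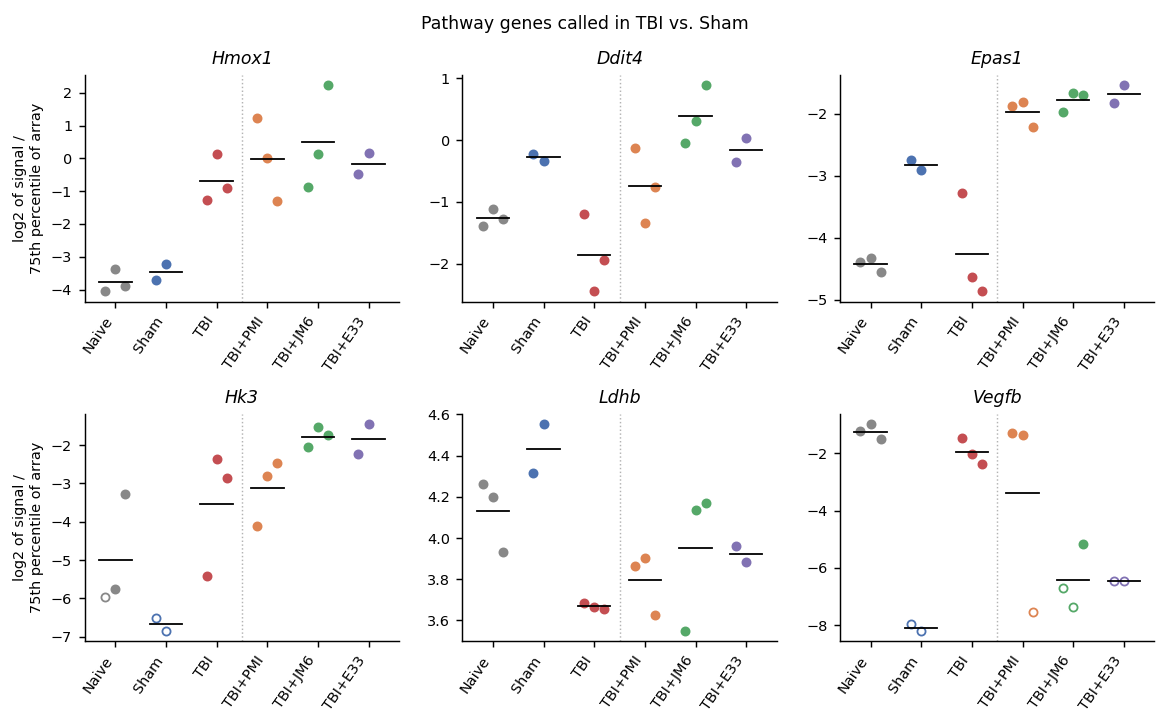
Level (log2 scale, scaled by the 75th percentile) of 6 pathway genes on the 16 arrays, with hollow points where the spot was not well above background. Among the Naive, Sham and TBI rats, Hmox1 and Hk3 were higher in TBI than in Sham rats, Ddit4 and Epas1 were highest in the 2 Sham rats and Ldhb was lowest in TBI rats, while Vegfb fell into 2 levels that followed the number series of the arrays.

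In treated rats, 4 of the 10 genes were called higher than in TBI rats in each of TBI+PMI, TBI+JM6 and TBI+E33, and they were the same 4: Hif1a, Hk1, Hk2 and Pfkfb3. The share of all probes called was 56.7%, 70.1% and 70.3% in the 3 comparisons, nearly all of them higher, so that the share of the 10 genes was below the background. Their median log2 fold change was 0.74, 0.92 and 0.54, beside 0.79, 0.99 and 1.08 over all probes tested. After quantile normalization, which sets the median of all probes to near 0, 1 gene was called in TBI+PMI (Hk1), 4 in TBI+JM6 (Hk1, Hk2 and Pfkfb3 higher, Bnip3 lower) and 1 in TBI+E33 (Hk1), against 19.2%, 27.2% and 20.4% of all probes, with medians of 0.16, 0.24 and -0.03. The 3 comparisons share the TBI arrays.

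Hk1 was the gene called higher in every drug comparison under every setting, by its 1 probe, which is among those listed as unmapped. It was at 0.86, 0.86 and 0.82 in TBI+PMI rats, 1.02, 1.51 and 1.53 in TBI+JM6 rats and 1.61 and 1.78 in TBI+E33 rats. All 8 were above all 8 untreated rats, of which the highest was -0.14. The fold change was 2.47 in TBI+PMI (log2 1.31, SE 0.19, adjusted p = 0.000138), 3.52 in TBI+JM6 (1.81, SE 0.19, adjusted p = 9.01e-06) and 4.45 in TBI+E33 (2.15, SE 0.21, adjusted p = 8.28e-06). After quantile normalization the log2 differences were 0.80, 1.16 and 1.49 (adjusted p = 0.00941, 0.0011 and 0.00085), above the median of all probes.

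Cell type markers moved with the drug groups as well. Summed astrocyte markers were at 25.5 to 25.8 in TBI rats and at 30.4 to 44.5, 48.9 to 52.8 and 50.3 to 52.2 in TBI+PMI, TBI+JM6 and TBI+E33 rats. Of 6 markers Gfap alone was called under both scalings in all 3 groups. The median log2 fold change of the 6 was 0.23, 0.38 and 0.56, below that of all probes (0.79, 0.99 and 1.08). After quantile normalization it was -0.38, -0.34 and -0.14. Summed neuronal markers were at 13.7 to 19.1 in TBI and 20.6 to 34.0 in treated rats, with Slc17a7 of 7 called likewise, and summed endothelial markers at 1.28 to 1.89 and 2.60 to 4.32, with Cdh5 of 6 called likewise. After quantile normalization the medians were 0.65, 0.70 and 0.14 for the neuronal and 0.26, 0.36 and 0.22 for the endothelial markers. The part of these cell types in the levels of Hk1 and the other genes was not tested.

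Hk2 was at -2.80, -3.03 and -3.20 in TBI+PMI rats, -2.83, -2.20 and -1.86 in TBI+JM6 rats and -2.28 and -2.38 in TBI+E33 rats. All 8 lay above all untreated rats, of which the highest was -4.10. The difference from TBI was 1.49 in TBI+PMI (adjusted p = 0.00441), 2.21 in TBI+JM6 (adjusted p = 0.000239) and 2.17 in TBI+E33 (adjusted p = 0.000639). After quantile normalization it was 0.38, 1.01 and 0.85, with a call in TBI+JM6 alone (adjusted p = 0.352, 0.0207 and 0.0749).

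Pfkfb3 was at -4.06, -4.82 and -4.57 in TBI+PMI rats, -3.88, -3.81 and -2.99 in TBI+JM6 rats and -4.24 and -3.94 in TBI+E33 rats, well above background on all 8 arrays. With no TBI array well above background, the level was at least 2.80-fold higher in TBI+PMI (adjusted p = 2.16e-05), at least 5.30-fold higher in TBI+JM6 (adjusted p = 2.44e-06) and at least 3.67-fold higher in TBI+E33 rats (adjusted p = 1.27e-05). After quantile normalization the fitted difference was 1.0, 1.89 and 0.92, with a call in TBI+JM6 alone (adjusted p = 0.0991, 0.00657 and 0.165). These differences fall short of the bounds, which hold only before quantile normalization. For the second probe the bounds were 2.33-fold in TBI+JM6 and 2.18-fold in TBI+E33 rats, and none is given for TBI+PMI, where 1 of 3 arrays was well above background.

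Hif1a was at 0.15, 0.17 and -0.47 in TBI+PMI rats, -0.19, -0.13 and 0.65 in TBI+JM6 rats and -0.14 and -0.18 in TBI+E33 rats. All 8 were above the TBI rats, by 0.75 (adjusted p = 0.0177), 0.91 (adjusted p = 0.00486) and 0.64 (adjusted p = 0.0459). After quantile normalization the differences were 0.17, 0.18 and -0.12 (adjusted p = 0.501, 0.444 and 0.693), without a call.

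**Figure D4:**
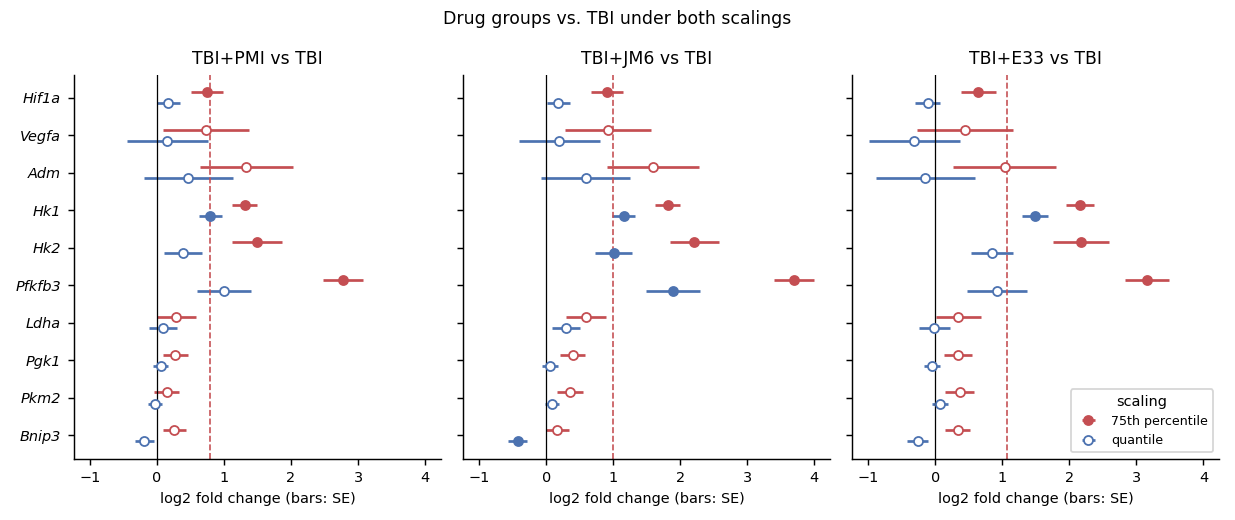
Log2 fold change against TBI of the 10 genes in TBI+PMI, TBI+JM6 and TBI+E33, with red points after scaling to the 75th percentile, blue points after quantile normalization, bars of 1 SE, filled points for an adjusted p under 0.05 and a dashed red line at the median of all probes tested. Hk1 is filled in both colours in all 3 panels, while Hif1a is filled in red and sits near 0 in blue.

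The angiogenic genes were not called by their main probes. Vegfa was at 1.50, -0.36 and -0.65 in TBI+PMI rats, -0.73, -0.01 and 1.82 in TBI+JM6 rats and -0.16 and -0.09 in TBI+E33 rats. TBI+PMI 1 and TBI+JM6 3 stood far above the other 6, which lay within the range of the untreated rats. The differences from TBI were 0.73, 0.93 and 0.44 (adjusted p = 0.335, 0.205 and 0.582). The probe A_64_P099891, well above background on all 16 arrays, was called in all 3 groups, with differences of 1.83, 2.01 and 1.48 (adjusted p = 0.0142, 0.0068 and 0.0491). The probe A_64_P155983 was called in TBI+PMI and TBI+JM6 (adjusted p = 0.00957 and 0.00677) and not in TBI+E33 (adjusted p = 0.0519), and since only 1 of 3 TBI arrays was well above background no difference is given for it. None of the 4 was called after quantile normalization.

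Adm was at -0.48, -2.70 and -3.08 in TBI+PMI rats, -2.79, -2.11 and -0.56 in TBI+JM6 rats and -2.72 and -2.04 in TBI+E33 rats. The same 2 rats were the highest, and the differences from TBI of 1.33, 1.60 and 1.04 did not pass the test (adjusted p = 0.114, 0.0538 and 0.235). Ldha was at 4.91, 4.33 and 3.82 in TBI+PMI rats, 4.21, 4.62 and 5.13 in TBI+JM6 rats and 4.37 and 4.44 in TBI+E33 rats, and was not called (0.59 in TBI+JM6, adjusted p = 0.0899). The same 2 rats were the highest again. Pgk1 lay between 3.87 in TBI+PMI 3 and 4.52 in TBI+JM6 3, without a call (0.40 in TBI+JM6, adjusted p = 0.0803).

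Pkm2 and Bnip3 were not called by their brightest probes. Pkm2 was at 4.07 to 4.81 in treated rats by its brightest probe, without a call (0.36 in TBI+JM6, adjusted p = 0.108). Its probe A_64_P094503 was called in all 3 groups (0.56, 0.70 and 0.51, adjusted p = 0.0247, 0.00622 and 0.0493), and after quantile normalization in TBI+JM6 alone (0.35, adjusted p = 0.0412). Its probe A_64_P024077 was called in TBI+JM6 (0.56, adjusted p = 0.0391) and not in TBI+PMI or TBI+E33 (0.55 and 0.48, adjusted p = 0.0505 and 0.101), so that the probes of the gene differed in their calls. Bnip3 was at 2.08, 1.71 and 1.36 in TBI+PMI rats, 1.46, 1.64 and 1.77 in TBI+JM6 rats and 1.78 and 1.80 in TBI+E33 rats. Its difference in TBI+JM6 vs. TBI was 0.17 (adjusted p = 0.383), and after quantile normalization -0.42 (adjusted p = 0.0406), a change of sign with the scaling.

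The 3 drug groups, scanned in the same session, were compared with each other by a moderated F test. Of the 10 genes 0 were called by limma (adjusted p = 0.240 to 0.976), with 2 at an unadjusted p under 0.05, where 0.0482% of all probes were called. None of the 3 pairs of drug groups gave a call for any of the 10 genes, with an unadjusted p under 0.05 for Hk1 and Pfkfb3 in TBI+JM6 vs. TBI+PMI and for Hk1 in TBI+E33 vs. TBI+PMI. The closest was Hk1, which was 0.85 higher in TBI+E33 than in TBI+PMI rats (95% interval 0.40 to 1.30, adjusted p = 0.131). The slides followed the same order: within the slide of the TBI+PMI rats TBI+JM6 1 was 0.17 above them, and within the slide of the TBI+E33 rats these were 0.17 above TBI+JM6 2 and 3.

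TBI+PMI 1 and TBI+JM6 3 were the 2 highest of the 8 treated rats for 4 of the 10 genes, Vegfa, Adm, Ldha and Pgk1, and the same 4 after quantile normalization. Over all probes tested these 2 rats were the highest pair for 9.28% of 22519, and 7.05% after quantile normalization. Of 24 other targets of the factor they were the highest pair for 18 (75%), and for 16 (66.7%) after quantile normalization. These rats were noticed by their Vegfa and Adm values, so the counts are a description, and the rats belong to different drug groups and slides.

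Among these targets Angptl4, an inhibitor of lipoprotein lipase, was at 1.37 and 1.65 in the pair and at -2.37 to -0.66 in the other 6 treated rats. Slc2a1, the glucose transporter of the blood-brain barrier and of astrocytes, was at 2.80 and 2.61 against 1.32 to 2.02. For both genes the pair did not overlap the others. TBI+PMI 1 was also the array with the highest summed level of choroid plexus genes (150.5), while TBI+JM6 3 was at 0.4, so that choroid plexus genes were high in one of the pair and near the lowest value in the other. Without both rats the number of genes called was 4 in each drug comparison, in each case a smaller share than over all probes.

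**Figure D5:**
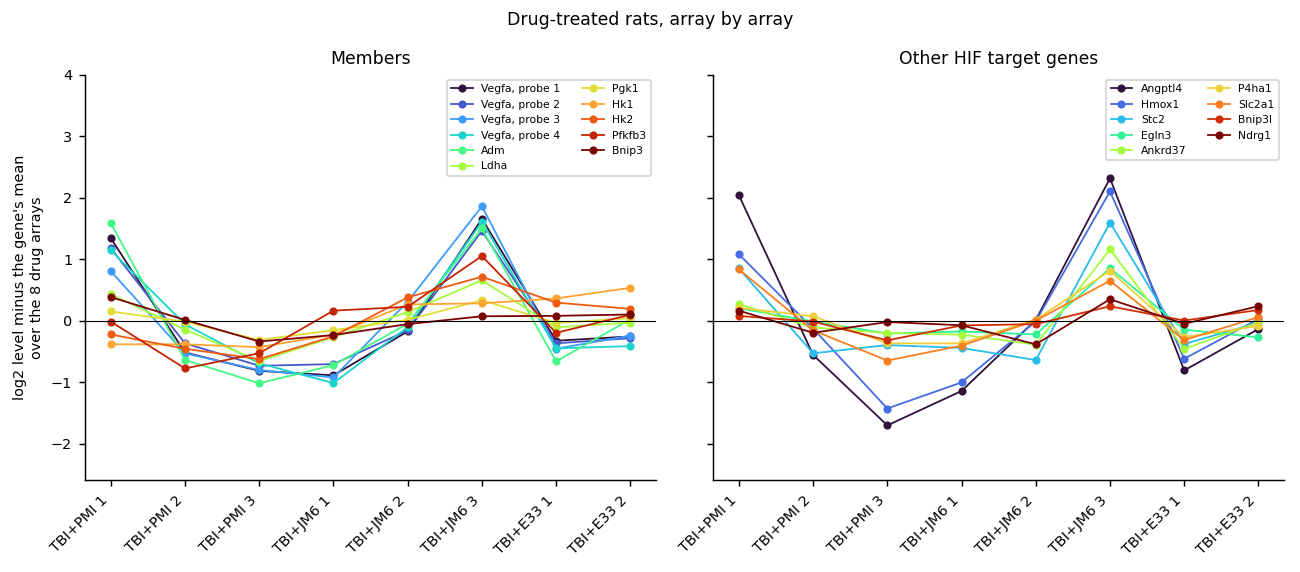
Level of genes on each of the 8 arrays of treated rats, as log2 minus the mean of the gene over the 8, with the 10 genes on the left except Hif1a and Pkm2 (the 4 Vegfa probes in order of brightness) and 9 other targets of the factor on the right. TBI+PMI 1 and TBI+JM6 3 lie above the other 6 rats for Vegfa, Adm and Angptl4, and not for Hk1, where the order follows the slides.

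In the pathway lists, 37 of 80 genes were called higher in TBI+PMI, 48 in TBI+JM6 and 42 in TBI+E33 vs. TBI, with 0, 1 and 1 lower, in each case a smaller share than over all probes (56.7%, 70.1% and 70.3%). After quantile normalization 7 were higher and 5 lower in TBI+PMI, 8 and 8 in TBI+JM6 and 4 and 7 in TBI+E33, again below the share of all probes (19.2%, 27.2% and 20.4%). Epas1 was among those called in all 3 groups under both scalings, by 2.29, 2.48 and 2.58 (adjusted p = 0.000113, 3.69e-05 and 7.4e-05) and by 1.34, 1.36 and 1.40 after quantile normalization. Pfkfb4 was called likewise, by 3.26 in TBI+JM6 rats and by 1.79 after quantile normalization, from a TBI group with 1 of 3 arrays well above background. Nrp2, a co-receptor of VEGF and semaphorins, was called in all 3 groups under both scalings. Before quantile normalization it was at least 6.21-fold, 6.05-fold and 8.07-fold higher in TBI+PMI, TBI+JM6 and TBI+E33 rats. After quantile normalization the fitted differences were 1.79, 1.53 and 1.84, which fall short of these bounds.

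Other genes were called in single groups under both scalings. Slc2a3, the neuronal glucose transporter, rose by 2.46 in TBI+JM6 rats (adjusted p = 4e-05) and by 1.08 after quantile normalization (adjusted p = 0.0149). Cited2, which competes with the factor for its coactivator, rose by 3.13 (adjusted p = 0.000365) and by 1.82 after quantile normalization (adjusted p = 0.0333) in the same group. For TBI+PMI the corresponding quantile-normalized values were 0.77 for Slc2a3 (adjusted p = 0.0693) and 1.47 for Cited2 (adjusted p = 0.0863), and the difference between the groups was not tested for these genes. Most other genes that led their lists, such as the kinase Pdk1, which closes pyruvate dehydrogenase, were called before and not after quantile normalization (1.27 and 0.45 in TBI+JM6, adjusted p = 0.000129 and 0.061).

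For Hif1a, Vegfa and Adm the genes nearest in pattern were sought over the 8 Naive, Sham and TBI arrays, by the root mean square difference of levels centred on each gene's mean, among 19396 genes. Nearest to Hif1a were Cdc42se1 (0.0365), Polg2 (0.0477) and the unnamed probe A_64_P116701 (0.0551). Nearest to Vegfa were Fkbp6 (0.111), Ttc22 (0.153) and Dusp8 (0.156). Nearest to Adm were Zfp329 (0.211), Fgd2 (0.233) and Vwf (0.233), the last being von Willebrand factor of endothelium. The distances were larger for Vegfa and Adm than for Hif1a, as were the standard deviations of the genes themselves (0.60 and 0.68 against 0.23). The correlation with the nearest gene was 0.99 for Hif1a, 0.98 for Vegfa and 0.94 for Adm.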

How the data were processed

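Hippocampal RNA was amplified with 1 of 2 kits (which was used for which rat is not stated) and hybridised to 1-colour arrays. The intensity of each spot, as deposited, was background subtracted by the authors' scanner software (Feature Extraction 9.5.3.1), and the authors' deposited matrix holds a linear ratio to the 75th percentile, used as an alternative. Intensities of 42877 spots were averaged by probe, scaled to the 75th percentile of probes well above background, and log2 transformed. The 22827 probes that in at least 1 group were well above background throughout were tested by limma in 1 model over 16 arrays without covariates (10 residual degrees of freedom), two-sided, with Benjamini-Hochberg adjustment over all probes tested, and called at an adjusted p under 0.05. An outlier spot was left out as a missing value. A bound ("at least") sets the bright group's mean against the dimmest signal well above background, and the number of arrays limits the precision. Because that flag has no fixed cut-off, a spot without it can lie above this signal, and a bound is approximate. An adjusted p beside a bound is that of the fitted difference and does not test the bound. Between scanning sessions a bound holds only for the scaling to the 75th percentile. The methods' t-test was an alternative only.

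The genes, the pathway and marker lists and the tests were chosen with earlier results of these data known. Named besides the 10 genes were, in each pathway list, the called genes with the 3 largest rises and falls, of which those that the text leaves out are counted, and the 3 genes nearest in pattern. Ramp1, Vegfb, Hmox1 and the others fall under this rule, while Angptl4 and Slc2a1 were chosen after their values were seen. Alternatives were normexp (offset 50), quantile normalization, other filters and percentiles, the matrix, slide and replicate blocks, the mean of a gene's probes and each rat left out. Leaving out arrays high in choroid plexus genes or in Vegfa and Adm was chosen after seeing the data. Some genes and a probe sequence are not reported here. The script was tested on simulated data. R 4.3.3, limma 3.58.1, data.table (1.17.8), Python 3.11.15 and matplotlib 3.10.9 were used.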

Additional observations from a re-analysis of the deposited data

How the results depend on the processing

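Comparisons of treated with untreated rats follow the scaling, since session and drug cannot be told apart, and groups of 2 or 3 rats leave wide intervals. In TBI vs. Sham the count of 1 gene fell to 0 with normexp, quantile normalization, the slide as a fixed block, the authors' matrix, a fit of only the 2 groups compared, the methods' t-test, a filter that asks for a signal well above background on each of the 16 arrays (which leaves Pfkfb3, Hk2 and Pgk1 untested), the mean of a gene's probes and without the arrays high in choroid plexus genes, and was 0 to 1 with each rat left out (1 without TBI 1, 0 without any of the other 4). With normexp, the slide block, the t-test and the fit of 2 groups, under 2% of all probes were called in each of the 3 comparisons. A count of 0 there says little about these genes. In TBI vs. Sham 7.97% of all probes were called with quantile normalization, and a similar share with the authors' matrix, without Pfkfb3. In TBI vs. Naive the count of genes was 0 under each of the settings above. In Sham vs. Naive the count of 1 fell to 0 with normexp, the filter on all 16 arrays, the t-test, the fit of 2 groups, the slide block and the mean of probes, rose to 2 with the 75th percentile over all probes (Pkm2 was added), and was 1 to 1 with each rat left out.

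Against TBI, the count of 4 in TBI+PMI was 1 with normexp, quantile normalization and the matrix, 2 with the filter on all 16 arrays and 3 to 5 with each rat left out. In TBI+JM6 it was 2 with normexp and 4 to 7 with each rat left out (7 without TBI+JM6 1). In TBI+E33 it was 1 with normexp, quantile normalization and the matrix, 2 with the filter on all 16 arrays and 3 to 4 with each rat left out. A lone rat left in a group was assumed to vary like the other groups. The F test gave 0 throughout, 0 to 0 with each rat left out. The slide could not be fitted as a fixed block against TBI, because no slide held both. The share of all probes called was 56.7%, 70.1% and 70.3% in TBI+PMI, TBI+JM6 and TBI+E33. With quantile normalization it was 19.2%, 27.2% and 20.4%, with the matrix it was similar, and with normexp it was lower still. The lower counts under these settings are therefore not particular to these genes.

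The sign turned for Pfkfb3 in TBI vs. Sham with normexp (0.30). With the 75th percentile over all probes, where the median of all probes was 0.15, 0.21 and 0.25 in place of 0.79, 0.99 and 1.08 in TBI+PMI, TBI+JM6 and TBI+E33, the counts were 4, 6 and 6, of which 2, 3 and 3 genes were shared with the counts of 4, and the others were called lower. There the sign turned for Pgk1 (-0.37, -0.39 and -0.50 in TBI+PMI, TBI+JM6 and TBI+E33), Pkm2 (-0.50, -0.43 and -0.47), Bnip3 (-0.62 in TBI+JM6, -0.50 in TBI+E33) and Hif1a (-0.19 in TBI+E33). It turned for Bnip3 in TBI+JM6 (-0.42 with quantile normalization, -0.41 with the matrix) and for Hif1a in TBI+E33 (-0.12 and -0.11). The cause was not tested. Of 1088 values of single genes under an alternative, 960 kept their sign and call. Same-numbered rats deviated together by low correlations of -0.05 to 0.18, but in 10 of 15 pairs the same-numbered rat was the best match. Whether the numbers pair samples is not settled by these values. With the replicate block the counts were 1, 0, 1, 4, 4 and 3 in the order above and 0 in the F test.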
